A study of Mus musculus with 12 samples.

Results

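The mRNAs described here encode the machinery of autophagy and mitophagy, 38 genes chosen by name and sorted into 7 stages, from the kinase complex that starts the process to the receptors for damaged mitochondria. All 38 were found by NCBI Gene ID among the 27179 genes counted, with 286 to 40170 reads per gene and muscle, and all 38 passed the filter on low counts. The muscles were the tibialis anterior (TA) of 6 male C57BL/6N mice, 6 to 8 weeks of age when purchased. *FRAIL1* is a human long noncoding RNA that rises with age in skeletal muscle and has no mouse counterpart. In each mouse the TA of 1 leg received 10 μg of empty pcDNA3 plasmid (Control muscles, n = 6) and that of the other leg 10 μg of a plasmid with the full-length human *FRAIL1* under the cytomegalovirus promoter (*FRAIL1* muscles, n = 6). Hyaluronidase and electroporation were used on both legs, and both TAs were taken on day 7, so the groups share the injection, the electric pulses and the plasmid DNA. The promoter is not restricted to muscle fibers, and the *FRAIL1* transcript itself is not among the mouse genes counted, so its level in each muscle was not measured here.

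Autophagy encloses cytoplasm in a double membrane, the autophagosome, and delivers it to the lysosome. A kinase complex and a lipid kinase complex mark the site, membrane is supplied to it, and conjugation enzymes attach proteins of the ATG8 family (LC3 and GABARAP) to the growing membrane, where cargo receptors dock. Mitophagy is the form in which mitochondria are the cargo. In skeletal muscle the pathway removes worn mitochondria and protein aggregates, and both too little and too much of it are known to go with loss of muscle mass. A change in mRNA does not show how much cargo is degraded, which was not measured here.

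The ATG8 family held the 1 gene of the 38 that rose, so the ends of their coding sequences are shown. Each sequence runs 5′ to 3′ on the coding strand and ends with the last codon before the stop codon. The capitals mark the codon of the glycine after which an ATG4 protease trims the protein before it is joined to lipid. All come from 1 exon on the plus strand of GRCm38, read from GENCODE M21 transcripts.
Map1lc3a, chr2:155277602-155277634: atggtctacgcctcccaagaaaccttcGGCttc
Map1lc3b, chr8:121596723-121596767: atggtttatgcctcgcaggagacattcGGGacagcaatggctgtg
Gabarap, chr11:69994489-69994521: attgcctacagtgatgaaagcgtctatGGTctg
Gabarapl1, chr6:129541132-129541164: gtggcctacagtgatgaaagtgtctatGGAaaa
Gabarapl2, chr8:111952370-111952402: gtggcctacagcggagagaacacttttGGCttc
*Map1lc3a* has 121 codons with 1 after the glycine, and *Map1lc3b* has 125 codons with 5 after it. The 3 GABARAP genes have 117 codons each, with 1 after the glycine. Over 363 aligned coding bases *Map1lc3a* and *Map1lc3b* were 75.8% identical, and the longest identical run was 15 bases. *Gabarap* and *Gabarapl1* were 74.6% identical over 351 bases, with a longest identical run of 17. These runs are short beside paired reads of 150 bases, and no other transcript matched *Map1lc3a* at 98% identity or more.

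Total counts were 44848322 to 60527385 per muscle. *FRAIL1* muscle 5 stood apart from the other 11: it lay at 59.5 on the first principal component (32.4% of the variance), against 25.8 for the next *FRAIL1* muscle and -25.9 to -11 for the Control muscles. Values without it are given where they changed a call or moved a difference by over 1.5 times, and for the genes described in full. The mitochondrial genome gave 10.6 ± 0.846% of the counts in Control and 8.73 ± 1.35% in *FRAIL1* muscles (SD, n = 6 each). The tissue held muscle fiber mRNAs at high levels: the summed level of 10 muscle fiber markers was 169232 to 196644 CPM (counts scaled to library size) in Control and 125383 to 180192 CPM in *FRAIL1* muscles, lowest in *FRAIL1* muscle 5 (147861 CPM or more without it), and 8 of the 10 were fitted below 0, with 1 past the test (*Ckm*). All 8 markers of satellite cells and regenerating fibers were fitted above 0, with 5 past the test, and their sum was 182 to 235 CPM in Control and 361 to 1625 CPM in *FRAIL1* muscles, with muscle 5 highest (at most 707 CPM without it). All 8 markers of denervated fibers were also fitted above 0, with 6 past the test and sums of 65.3 to 94.2 CPM against 149 to 312 CPM (at most 226 CPM without muscle 5). *Myog* and *Ncam1*, which passed the test, are in this list and in that of regenerating fibers, so their counts and sums overlap. Fibroblast markers were fitted above 0 in 7 of 8 cases with 1 past the test (*Col1a2*), with sums of 1224 to 2370 CPM against 2445 to 6218 CPM, and muscle 5 was again highest (at most 3112 CPM without it). Macrophage markers were fitted above 0 in 11 of 12 cases with 0 past edgeR's test (8 at an unadjusted p-value under 0.05, 7 past DESeq2's test and 5 past limma voom), with sums of 271 to 426 CPM against 337 to 846 CPM. Endothelial markers were fitted below 0 in 8 of 8 cases with 2 past the test. Schwann cell markers were below 0 in 7 of 8 cases with 0 past edgeR's test. At an unadjusted p-value under 0.05 there were 1 higher (*Ngfr*) and 2 lower, with DESeq2 also 1 higher (*Ngfr*) and 2 lower, and with voom 0. Lymphocyte markers were below 0 in 4 of 7 cases with 0 past edgeR's test, also at an unadjusted p-value under 0.05. After adjustment DESeq2 and voom called 0 of them, and at an unadjusted p-value under 0.05 each had 1 higher. The B cell marker *Ms4a1* was at 0 in at least 1 muscle. The part of these other cells in the results on autophagy genes was not tested. In a whole muscle, fewer cells of a type and less RNA per cell cannot be told apart. Beside these marker counts, 4.43% of all genes tested were higher and 1.85% lower past edgeR's test. In the same test 15.2% were higher and 12.5% lower at an unadjusted p-value under 0.05. DESeq2 called 8.26% of all genes tested higher and 6.13% lower, and voom 6.41% and 5.43%.

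Of the 38 mRNAs, 1 rose and 3 fell in *FRAIL1* muscles. The test was the quasi-likelihood test of edgeR, with p-values adjusted over the 15502 genes tested by the Benjamini-Hochberg method and a threshold of 0.05. The test held no term for the mouse, since the labels do not say which muscles came from the same animal. Each difference is given as a log2 fold change with its standard error (SE). Among all genes tested 4.43% rose and 1.85% fell. The rise was that of *Map1lc3a*, which encodes LC3A. The falls were those of *Atg4d*, an ATG4 protease that acts on ATG8 proteins, *Optn*, the cargo receptor optineurin, and *Pink1*, the kinase that marks damaged mitochondria. The fitted log2 fold change was above 0 for 8 of the 38 and below 0 for 30, against 51.6% and 48.4% of all genes tested, and the median over the 38 was -0.10, against 0.01 over all genes tested. Without *FRAIL1* muscle 5 the median was -0.07, with 1 rise and 5 falls (3.69% and 2.52% of all genes tested). DESeq2 and limma voom each called 1 higher and 6 lower of the 38, beside 8.26% and 6.13% of all genes tested with DESeq2 and 6.41% and 5.43% with voom.

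With an unadjusted p-value under 0.05 there were 2 higher and 12 lower genes among the 38, beside 15.2% and 12.5% of all genes tested. The same shares stand beside the counts of each stage below, as do 4.43% higher and 1.85% lower past edgeR's test. For the stage counts of DESeq2 and voom the shares are those given above for these tools. The 6 *FRAIL1* values all lay above the 6 Control values for 1 of the 38 (*Map1lc3a*) and all below for 2 (*Atg4d* and *Optn*), beside 3.12% and 1.77% of all genes tested. Most differences were small: 35 of the 38 mean levels differed by less than 20% between groups and 23 by less than 10%.

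**Figure D1:**
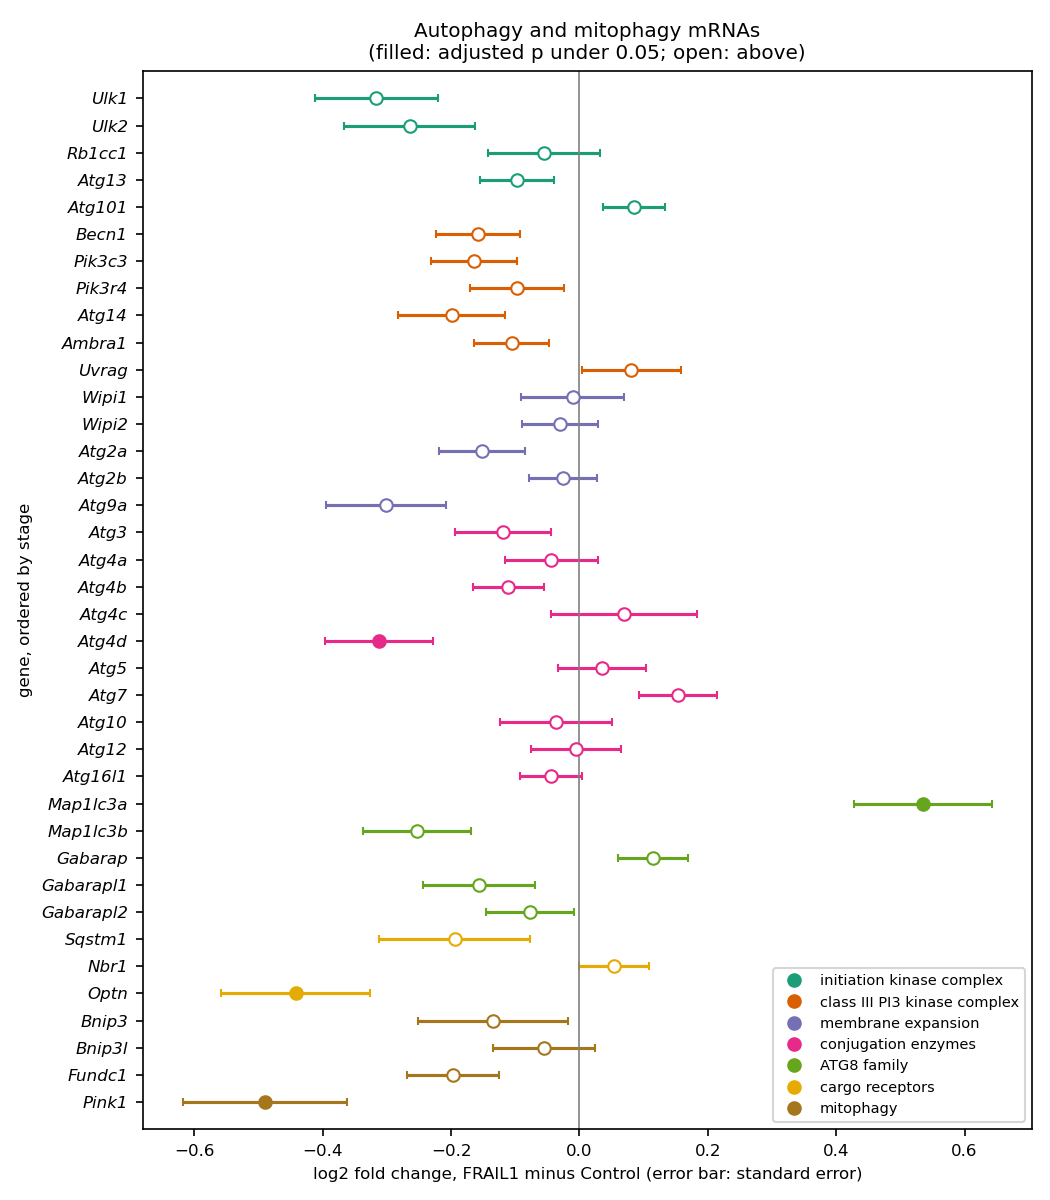
Log2 fold change of each of the 38 mRNAs, FRAIL1 minus Control muscles (n = 6 each), on the horizontal axis, with its standard error as the bar and genes ordered and colored by stage; filled points passed the adjusted p-value of 0.05. Map1lc3a lies alone on the right at 0.54, and Pink1 at -0.49, Optn at -0.44 and Atg4d at -0.31 are the filled points on the left.

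The initiation kinase complex (5 genes) was fitted below 0 for 4 genes and above 0 for 1, with a median log2 fold change of -0.10 and 0 past edgeR's test (2 at an unadjusted p-value under 0.05, and 1, *Ulk1*, with DESeq2 and with voom). *Ulk1*, the kinase that nutrient signals act on to start autophagy, measured 72.5 to 82.4 CPM in Control muscles (median 73.0) and 43.9 to 73.2 CPM in *FRAIL1* muscles (median 60.3). *FRAIL1* muscle 2 alone lay within the Control range, and the 5 others lay below the lowest Control muscle. Its log2 fold change was -0.32 (SE 0.0957, edgeR quasi-likelihood adjusted p = 0.0583). The adjusted p-value of *Ulk1* was under 0.05 in the same test without *FRAIL1* muscle 2 (0.0232), 3 (0.034) or 5 (0.0461, log2 fold change -0.24), and 0.0786 to 0.116 when any of the other 9 muscles was left out.

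Its paralog *Ulk2* had a log2 fold change of -0.26 (SE 0.101), from 96.0 ± 11.3 to 79.9 ± 12 CPM (SD, n = 6), and -0.21 without *FRAIL1* muscle 5. The partners of the kinases were nearer to 0. The scaffold *Rb1cc1* (FIP200) was at -0.06 (-0.02 without *FRAIL1* muscle 5), the adaptor *Atg13* at -0.10 and the ATG13-binding subunit *Atg101* at 0.08. The kinase subunits thus had the lowest log2 fold changes of the complex, and the adjusted p-values of all 5 genes exceeded the threshold.

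The class III phosphatidylinositol 3-kinase complex (6 genes), which makes the lipid that recruits later factors, was fitted below 0 for 5 genes, with a median of -0.13 and 0 past edgeR's test (3 at an unadjusted p-value under 0.05, 0 with DESeq2 and with voom). *Becn1* (Beclin 1), its regulatory core, measured 67.3 to 70.5 CPM in Control muscles (median 68.0) and 51.1 to 70.3 CPM in *FRAIL1* muscles (median 62.1). In 5 of 6 *FRAIL1* muscles it lay below the lowest Control muscle, with muscle 5 lowest and muscle 3 near the top of the Control range. *Becn1* had a log2 fold change of -0.16 (SE 0.0652, edgeR quasi-likelihood adjusted p = 0.132). Without *FRAIL1* muscle 3 that adjusted p-value was 0.0432, and without muscle 5 it was 0.207, with a log2 fold change of -0.11. The gene *Cntd1* covers 43.9% of the *Becn1* exons on the opposite strand, and the sources used here do not give the strand setting of the counting.

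*Atg14*, the subunit that directs the complex to autophagosome formation, had the largest log2 fold change of this stage, -0.20 (SE 0.0831, edgeR quasi-likelihood adjusted p = 0.136), and -0.16 without *FRAIL1* muscle 5. Its levels were 9.29 to 12.5 CPM in Control (median 11) and 8.11 to 10.3 CPM in *FRAIL1* muscles (median 9.61). All 6 *FRAIL1* muscles lay below the Control median and 2 below the lowest Control muscle. The lipid kinase *Pik3c3* was at -0.16, its partner *Pik3r4* at -0.10, the regulator *Ambra1* at -0.11 and *Uvrag*, which takes the place of ATG14 in the endosomal form of the complex, at 0.08.

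Membrane expansion (5 genes) was fitted below 0 for all 5, with a median of -0.03 (-0.02 without *FRAIL1* muscle 5) and 0 past edgeR's test (2 at an unadjusted p-value under 0.05, and 1, *Atg9a*, with DESeq2 and with voom). *Atg9a* encodes the scramblase of the vesicles that seed the autophagosome. It measured 170 to 187 CPM in Control muscles (median 178) and 103 to 172 CPM in *FRAIL1* muscles (median 149). *FRAIL1* muscle 3 overlapped the lower Control muscles, and the other 5 lay below all of them. *Atg9a* had a log2 fold change of -0.30 (SE 0.0932, edgeR quasi-likelihood adjusted p = 0.0612). The adjusted p-value in this test was 0.0324 without *FRAIL1* muscle 5 (log2 fold change -0.22), 0.0224 without muscle 3, and 0.0507 to 0.115 without any 1 of the other muscles. Other genes cover 32.6% of the *Atg9a* exons, *Ankzf1* among them on the opposite strand. The lipid transfer protein *Atg2a* was at -0.15 and *Atg2b* at -0.03, and the lipid-binding *Wipi1* and *Wipi2* at -0.01 and -0.03. Without *FRAIL1* muscle 5 *Atg2b* was at -0.01 and *Wipi2* at -0.02.

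The conjugation enzymes (10 genes) had a median of -0.04 (-0.02 without *FRAIL1* muscle 5), with 3 fitted above 0, 7 below and 1 past the test. *Atg4d* fell. Its level was 61.2 to 68.4 CPM in Control muscles (median 66.0) and 39.2 to 60.6 CPM in *FRAIL1* muscles (median 54.0). The groups did not overlap, and *FRAIL1* muscles 5 and 3 were the lowest and the highest of their group. The log2 fold change was -0.31 (SE 0.0840, edgeR quasi-likelihood adjusted p = 0.0423), and -0.24 with an adjusted p of 0.0163 without *FRAIL1* muscle 5. The call in this test also held without *FRAIL1* muscle 2 (0.0397) or 3 (0.0179). It was lost when *FRAIL1* muscle 1, 4 or 6 or any 1 Control muscle was left out (adjusted p = 0.0571 to 0.0839), at log2 fold changes of -0.36 to -0.24 over all 12 fits. *Kri1* covers 19.3% of the *Atg4d* exons on the opposite strand.

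The other proteases of this kind did not pass the test. *Atg4a* was at -0.04, *Atg4b* at -0.11 and *Atg4c* at 0.07, and 96.0% of the *Atg4a* transcript is matched by *Atg4a-ps*, so reads of these 2 genes may have been split or dropped. *Atg7*, the activating enzyme of both conjugation systems, was fitted highest of the stage: 13.5 ± 0.299 CPM in Control and 15.0 ± 1.05 CPM in *FRAIL1* muscles (SD, n = 6), with a log2 fold change of 0.15 (SE 0.0605, edgeR quasi-likelihood adjusted p = 0.119). It lay above the highest Control muscle in 5 of 6 *FRAIL1* muscles. The conjugating enzyme *Atg3* was at -0.12, *Atg10* at -0.04, and the parts of the ATG12 conjugate, *Atg12*, *Atg5* and *Atg16l1*, at -0.01, 0.04 and -0.04. *Atg4c* was at 0.02, *Atg10* at 0.01 and *Atg12* at 0.01 without *FRAIL1* muscle 5.

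**Figure D2:**
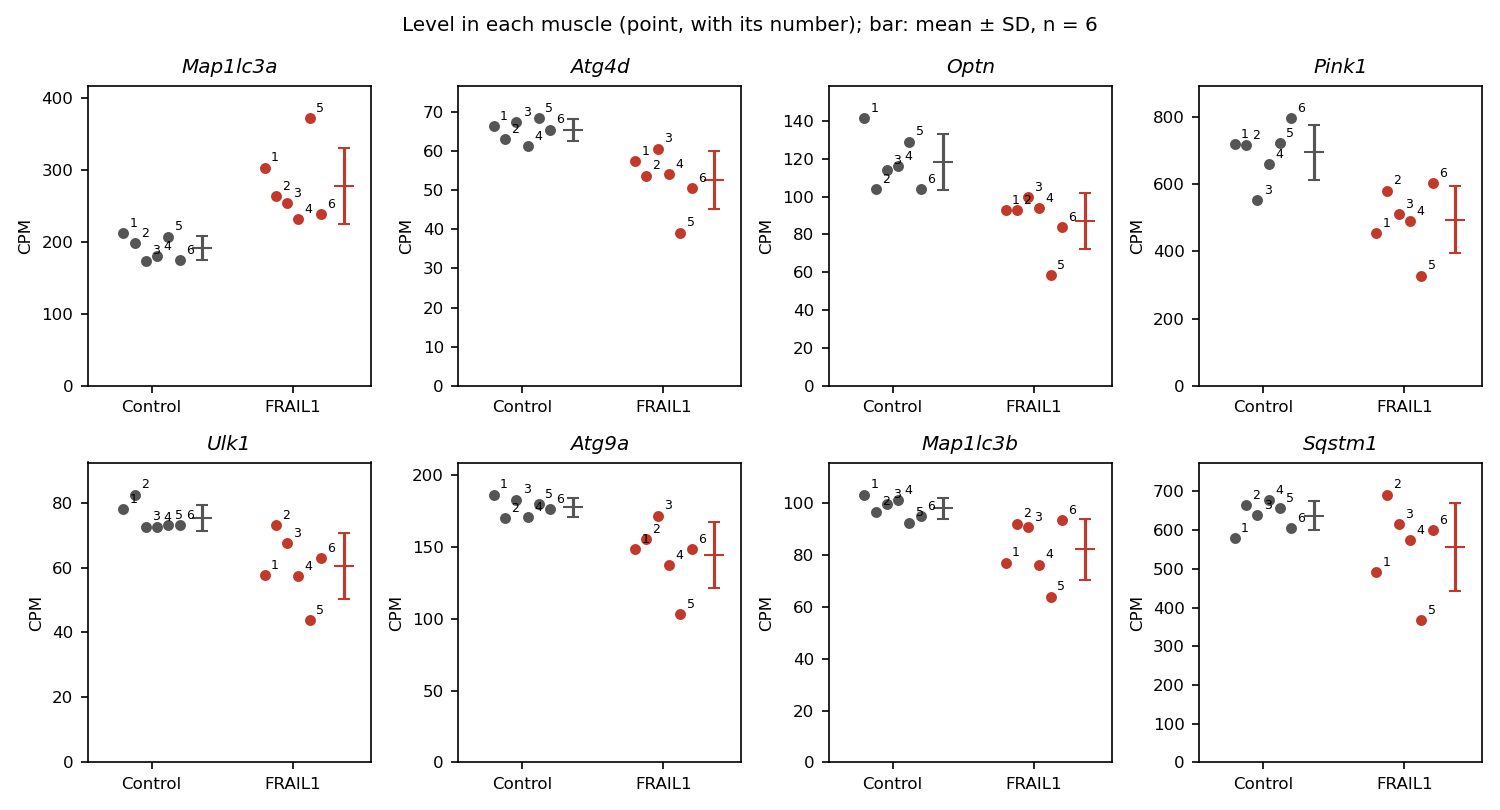
CPM of 8 mRNAs in each muscle, with the number of the muscle beside its point and the mean ± SD of each group (n = 6) as the bar; each vertical axis starts at 0. FRAIL1 muscle 5 is the highest FRAIL1 muscle for Map1lc3a and the lowest of the 12 muscles for the 7 other genes.

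The ATG8 family (5 genes) had 2 genes fitted above 0, 3 below and 1 past the test. *Map1lc3a* rose. In the 6 Control muscles it measured 212, 199, 174, 181, 207 and 175 CPM, and in the 6 *FRAIL1* muscles 304, 264, 254, 232, 372 and 239 CPM (muscles 1 to 6). Every *FRAIL1* muscle exceeded every Control muscle, and muscle 5 was the highest. The mean was 191 ± 16.9 CPM in Control and 277 ± 52.9 CPM in *FRAIL1* muscles (SD, n = 6), which gave a log2 fold change of 0.54 (SE 0.107, edgeR quasi-likelihood adjusted p = 0.0138). Without *FRAIL1* muscle 5 it was 0.43 with an adjusted p of 0.00435 in the same test. *Map1lc3a* passed the test in all 12 fits that left out 1 muscle, with adjusted p-values of 0.00435 to 0.0375 (edgeR) and log2 fold changes of 0.43 to 0.58.

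*Map1lc3b*, which encodes the LC3B protein that serves as the usual marker of autophagosomes, was fitted on the other side of 0. It measured 92.4 to 103 CPM in Control muscles (median 98.1) and 63.9 to 93.5 CPM in *FRAIL1* muscles (median 83.8). *FRAIL1* muscle 6 alone lay within the Control range, and the others lay below it. The log2 fold change was -0.25 (SE 0.0839, edgeR quasi-likelihood adjusted p = 0.0751), and -0.19 with an adjusted p of 0.0921 without *FRAIL1* muscle 5. The adjusted p-value was under 0.05 in that test without *FRAIL1* muscle 2 (0.0485) or 3 (0.0455). DESeq2 and voom called *Map1lc3b* lower (adjusted p = 0.0394 and 0.0347).

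The GABARAP genes differed less. *Gabarapl1* measured 22.2 to 27.4 CPM in Control (median 24.8) and 19.2 to 27.2 CPM in *FRAIL1* muscles (median 21.8). The groups overlapped, with 3 *FRAIL1* muscles below the lowest Control muscle and muscle 2 near the top of the Control range. Its log2 fold change was -0.16 (SE 0.0869, edgeR quasi-likelihood adjusted p = 0.253), and -0.12 without *FRAIL1* muscle 5. On the opposite strand, 28.3% of the *Gabarapl1* exons are shared with another transcript. *Gabarap* was at 0.11, from 30.6 ± 0.996 to 33.2 ± 2.33 CPM, and *Gabarapl2* at -0.08 (-0.05 without *FRAIL1* muscle 5), from 25.6 ± 2.11 to 24.3 ± 1.92 CPM (SD, n = 6). About the same share of the *Gabarapl2* transcript, 20.8% and 20.9%, is matched by each of a pair of processed pseudogenes.

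Per kilobase of exons, the level of *Map1lc3a* was 162 CPM in Control and 235 CPM in *FRAIL1* muscles, above every other ATG8 gene: *Gabarap* was at 16.6 and 18, *Map1lc3b* at 13.0 and 10.9, *Gabarapl1* at 12.4 and 11.1 and *Gabarapl2* at 11 and 10.4 CPM per kilobase. The length used was that of all annotated exons, 7517 bases for *Map1lc3b* and 1844 for *Gabarap*. Their longest coding transcripts have 2633 and 1351 bases, so the order of the genes below *Map1lc3a* depends on the length used. The ratio of *Map1lc3a* to *Map1lc3b* reads in a muscle does not depend on the scaling of the libraries. It was 1.75 to 2.24 in the Control muscles and 2.55 to 5.82 in the *FRAIL1* muscles, so the groups did not overlap. The mean log2 ratio was 0.96 ± 0.141 in Control and 1.75 ± 0.443 in *FRAIL1* muscles (SD, n = 6), a difference of 0.78 (exact permutation test over 924 splits, two-sided p = 0.00216, the smallest that the design allows). Adjusted over the 10 ratios compared it was 0.0216 (exact permutation test, Benjamini-Hochberg). Without *FRAIL1* muscle 5 the difference was 0.63 (adjusted p = 0.0433, exact permutation test). The ratio uses the same counts as the results of each gene above. The ratios were also chosen with earlier results of these data known, so this test is not independent support.

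**Figure D3:**
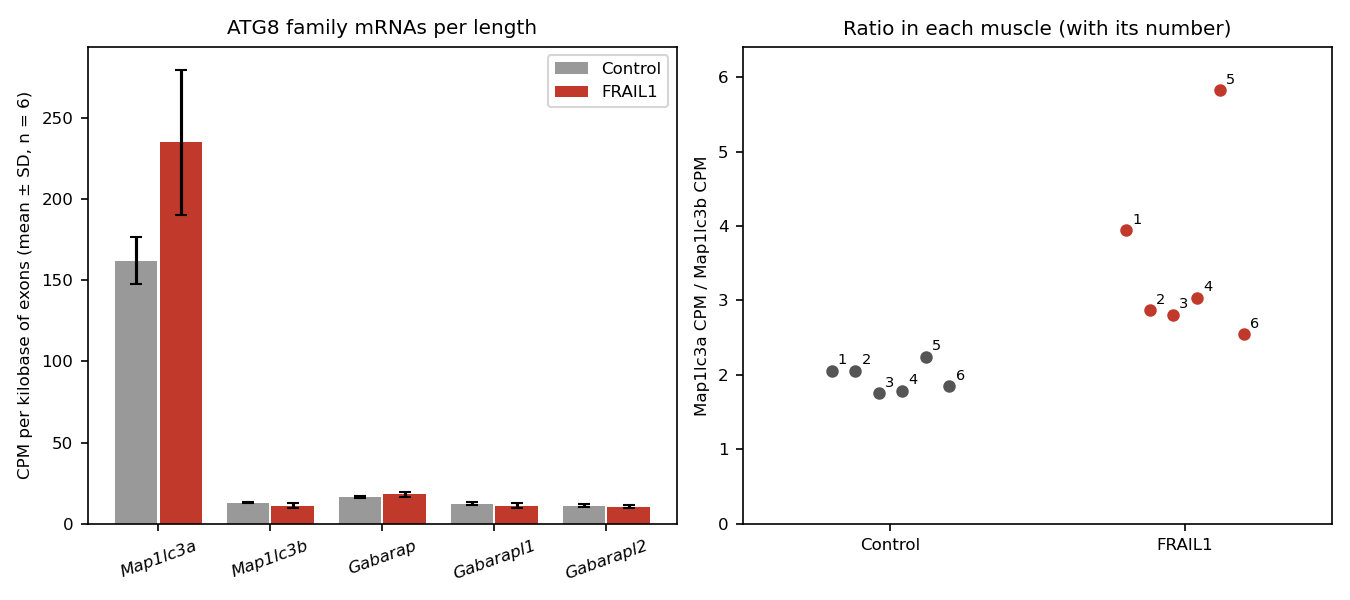
Left, level of the 5 ATG8 family mRNAs in CPM per kilobase of exons, as mean ± SD of 6 muscles per group; right, ratio of Map1lc3a to Map1lc3b CPM in each muscle, numbered. Map1lc3a is the tallest pair of bars, and the ratios of the FRAIL1 muscles (2.55 to 5.82) lie above those of the Control muscles (1.75 to 2.24).

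The 9 other ratios between related genes did not pass that adjustment. The ratio of the cargo receptors *Sqstm1* to *Nbr1* was 6.30 to 7.43 in Control and 3.98 to 6.48 in *FRAIL1* muscles, a difference of -0.27 in mean log2 ratio (exact permutation p = 0.0130, adjusted 0.0649). *Gabarapl1* to *Gabarap* differed by -0.28 (exact permutation p = 0.0303, adjusted 0.101) and *Atg4c* to *Atg4d* by 0.40 (exact permutation p = 0.0411, adjusted 0.103). *Atg2a* to *Atg2b* differed by -0.13 (exact permutation p = 0.0606, adjusted 0.121). *Ulk1* to *Ulk2*, which lay on the same side of 0, differed by -0.06, *Wipi1* to *Wipi2* by 0.03, *Atg4a* to *Atg4b* by 0.07, *Gabarapl1* to *Gabarapl2* by -0.09 and *Bnip3* to *Bnip3l* by -0.09, with exact permutation p-values of 0.219 to 0.846.

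The cargo receptors (3 genes) had a median of -0.19 (-0.10 without *FRAIL1* muscle 5), with 1 fitted above 0, 2 below and 1 past the test. *Optn*, which links ubiquitin on damaged mitochondria and other cargo to LC3, fell. Its level was 104 to 141 CPM in Control muscles (median 115) and 58.5 to 99.8 CPM in *FRAIL1* muscles (median 92.8). The groups did not overlap, and *FRAIL1* muscle 5 was far below the other 5, which lay between 83.8 and 99.8 CPM. The log2 fold change was -0.44 (SE 0.116, edgeR quasi-likelihood adjusted p = 0.0394), and -0.35 with an adjusted p of 0.0158 without *FRAIL1* muscle 5. The call in this test held also without *FRAIL1* muscle 2 (0.036) or 3 (0.0227) or Control muscle 6 (0.0484). It was lost without *FRAIL1* muscle 1, 4 or 6 or Control muscle 1, 2, 3, 4 or 5 (adjusted p = 0.0534 to 0.0860), at log2 fold changes of -0.49 to -0.35 over all 12 fits.

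*Sqstm1* (p62), the receptor for ubiquitinated aggregates and itself a substrate of autophagy, was the most abundant receptor per kilobase of exons (190 CPM in Control muscles). It measured 579 to 677 CPM in Control muscles (median 648) and 367 to 692 CPM in *FRAIL1* muscles (median 587). The groups overlapped: *FRAIL1* muscle 2 was the highest of the 12 muscles and muscle 5 the lowest. The log2 fold change was -0.19 (SE 0.118, edgeR quasi-likelihood adjusted p = 0.296) and -0.10 without *FRAIL1* muscle 5 (adjusted p = 0.475, edgeR). *Mrnip* covers 17.3% of the *Sqstm1* exons on the opposite strand. *Nbr1*, a receptor that binds p62, was at 0.05, from 92.7 ± 3.07 to 96.2 ± 6.22 CPM (SD, n = 6).

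The mitophagy genes (4 genes) were all fitted below 0, with a median of -0.17 (-0.11 without *FRAIL1* muscle 5) and 1 past the test. *Pink1* fell. It measured 718, 716, 553, 658, 722 and 795 CPM in Control muscles 1 to 6 and 453, 580, 510, 489, 328 and 603 CPM in *FRAIL1* muscles 1 to 6. The groups overlapped at Control muscle 3, which lay below *FRAIL1* muscles 2 and 6, and the other 4 *FRAIL1* muscles lay below every Control muscle. The mean was 694 ± 81.7 CPM in Control and 494 ± 98.9 CPM in *FRAIL1* muscles (SD, n = 6), which gave a log2 fold change of -0.49 (SE 0.128, edgeR quasi-likelihood adjusted p = 0.0380). Without *FRAIL1* muscle 5 it was -0.40 with an adjusted p of 0.0213 in this test. The call held also without *FRAIL1* muscle 2 (0.0265), 3 (0.0337) or 6 (0.0329) or Control muscle 3 (0.0397), and was lost without *FRAIL1* muscle 1 or 4 or Control muscle 1, 2, 4, 5 or 6 (adjusted p = 0.0601 to 0.0821, edgeR). Per kilobase of exons *Pink1* had the highest Control level of the 38 mRNAs, 259 CPM, against a median of 9.34 and a lowest level of 1.35 (*Pik3r4*).

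*Bnip3*, a receptor in the outer mitochondrial membrane that FoxO factors and hypoxia are known to induce, measured 81.9 to 115 CPM in Control muscles (median 111) and 72.1 to 120 CPM in *FRAIL1* muscles (median 98). The ranges overlapped over most of their length, with *FRAIL1* muscle 5 lowest and muscle 2 highest. Its log2 fold change was -0.13 (SE 0.117, edgeR quasi-likelihood adjusted p = 0.481), and -0.06 with an adjusted p of 0.776 without *FRAIL1* muscle 5. A noncoding transcript (48.8% of the *Bnip3* transcript) and a pair of pseudogenes (32.1% and 31.8%) match it closely. Reads of *Bnip3*, like those of *Atg4a*, may thus have been split or dropped, so its level is less certain than that of genes without such copies. Its relative *Bnip3l* (NIX) was at -0.06, and at -0.01 without *FRAIL1* muscle 5. The pseudogene *Bnip3l-ps* matches 34.7% of the *Bnip3l* transcript. The same limit thus holds for *Bnip3l* and for the ratio of *Bnip3* to *Bnip3l*. *Fundc1*, the hypoxia-responsive receptor of the outer membrane, was at -0.20 (SE 0.0717, edgeR quasi-likelihood adjusted p = 0.0973), from 25.7 ± 1.80 to 22.4 ± 2.16 CPM (SD, n = 6), and all 6 *FRAIL1* muscles lay below the Control median. *Fundc1* was at -0.15 without *FRAIL1* muscle 5.

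The *FRAIL1* muscles differed among themselves. The median over the 38 mRNAs of the log2 difference from the Control mean was -0.24 in *FRAIL1* muscle 5, -0.12 in each of muscles 1 and 4, -0.07 in muscle 6, -0.04 in muscle 3 and -0.01 in muscle 2. *FRAIL1* muscle 5 had the lowest level of the 12 muscles for 23 of the 38, beside 23.3% of all genes tested, and no other muscle did so for more than 3. It was also the muscle with the highest sums of regenerating fiber, denervated fiber and fibroblast markers and the lowest sum of muscle fiber markers, whose part in its low levels was not tested. For *Map1lc3a*, *Pink1*, *Optn* and *Atg4d* the difference kept its direction, and stayed past the threshold, without it. The spread between muscles was larger among *FRAIL1* than among Control muscles for 25 of the 38, with median coefficients of variation of 9.63% and 6.96%.

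**Figure D4:**
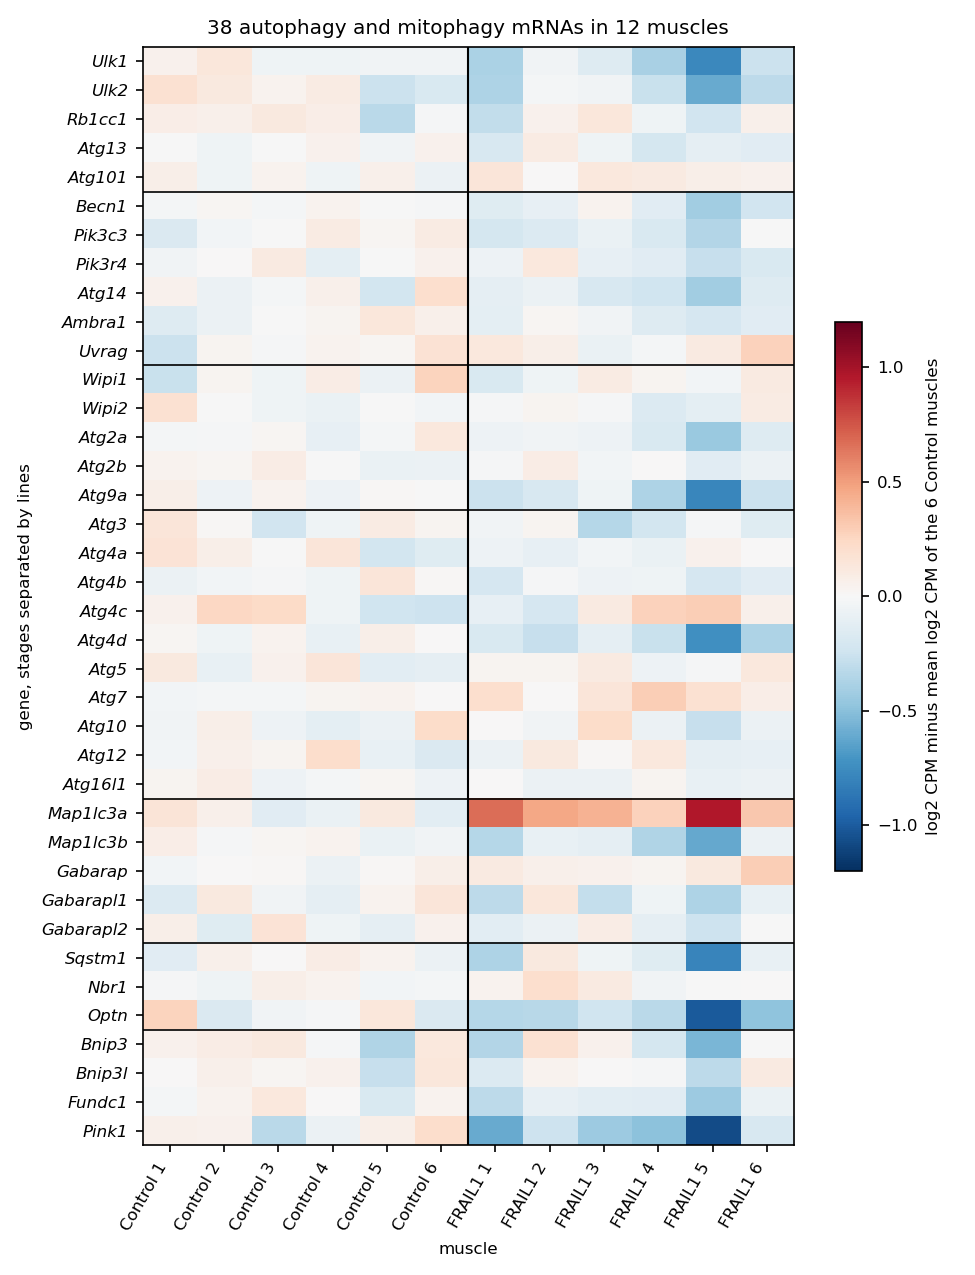
Log2 CPM of the 38 mRNAs (rows, stages separated by lines) in the 12 muscles (columns), each minus the mean log2 CPM of the 6 Control muscles, with red above and blue below. The Map1lc3a row is red in all 6 FRAIL1 columns, the rows of Atg4d, Optn and Pink1 are blue in all 6, and the column of FRAIL1 muscle 5 holds the darkest blue cells.

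Further genes of the pathway were read from 4 lists. Of 12 other factors of autophagosome formation, 19 other cargo and organelle receptors and 14 factors of the fusion of autophagosomes with lysosomes, 0 passed edgeR's test. At an unadjusted p-value under 0.05 they held 1, 2 and 0 higher and 1, 5 and 6 lower genes, beside 15.2% and 12.5% of all genes tested. DESeq2 called 0, 1 and 0 higher and 0, 1 and 3 lower, beside 8.26% and 6.13% of all genes tested. Voom called 0 higher in each list and 1, 1 and 3 lower, beside 6.41% and 5.43%. The fusion genes called by both tools were the small GTPase *Rab7*, the tethering subunit *Vps33a* and the SNARE *Ykt6*, all lower in *FRAIL1* muscles. The medians of the log2 fold changes in these lists were -0.06, -0.04 and -0.08, and -0.04, -0.02 and -0.04 without *FRAIL1* muscle 5. In that fit 1 of the 14 fusion genes fell past edgeR's test, beside 2.52% of all genes tested. With the replicate number as a block, edgeR called 0, 1 and 0 higher and 0, 1 and 5 lower in these 3 lists. Of all genes tested 7.48% were higher and 6.62% lower with the block. Of 11 transcriptional regulators of autophagy 2 fell and 0 rose in edgeR's test, beside 1.85% and 4.43% of all genes tested. *Foxo4*, a FoxO factor that activates atrophy and autophagy genes, fell from 211 ± 6.49 to 151 ± 31.8 CPM (SD, n = 6). The log2 fold change was -0.48 (SE 0.122, edgeR quasi-likelihood adjusted p = 0.0348), and no *FRAIL1* muscle reached the lowest Control muscle. *Foxo4* remained past the threshold in that test without *FRAIL1* muscle 2 (0.0265), 3 (0.0178) or 5 (0.00222) and not without any of the other 9 (0.0507 to 0.0734). *Atf4*, the effector of the integrated stress response, fell from 141 ± 10.4 to 112 ± 11 CPM (SD, n = 6), also without overlap, with a log2 fold change of -0.33 (SE 0.0727, edgeR quasi-likelihood adjusted p = 0.0203). The call of *Atf4* held in all 12 fits that left out 1 muscle.

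The promoters of the pathway were read for the sites that some of these regulators bind. Windows of 300 bases (250 before and 50 after a start, RefSeq, GRCm38.p6) were found for 31 of the 38 genes, 34 windows in all, and were searched on both strands. The E-box CACGTG lay in 5 windows (14.7%), against 7.15% of all 32851 windows and 9.50% of those of tested genes. These were the windows of *Atg14*, *Atg3*, *Atg5*, *Atg7* and *Bnip3*, none of which passed the test. The *Atg5* match begins 14 bases before the start. The *Atg7* window belongs to a start inside the gene, which begins at base 114643127 of chromosome 6. The matches in *Atg3*, *Atg7* and *Bnip3* lie before the start together with the 12 bases on either side. They are shown with these bases and the E-box in capitals, since they are the motif behind this count.
Atg3, chr16:45158723-45158752, plus strand: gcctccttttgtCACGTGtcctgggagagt
Atg3, chr16:45158746-45158775, plus strand: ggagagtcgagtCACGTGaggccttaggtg
Atg7, chr6:114670952-114670981, plus strand: catattggtggtCACGTGtgcagtaagtga
Bnip3, chr7:138909597-138909626, minus strand: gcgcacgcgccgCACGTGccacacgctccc
The longer form bound by TFEB and its relatives (the CLEAR motif, which contains the E-box), the FOXO motif GTAAACA and the ATF4 motif TGATGNAAT lay in 0 of the 34 windows, against 0.326%, 3.65% and 0.965% of all windows and 0.607%, 2.56% and 0.480% of those of tested genes. The GC box GGGCGG lay in 21 (61.8%), against 35.7% of all windows and 59.3% of those of tested genes. Of the 4 genes past the test, *Map1lc3a* had no window, and *Atg4d*, *Optn* and *Pink1* each held a GC box and none of the other motifs.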

How the data were processed

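The authors sequenced poly(A) RNA as paired-end reads and trimmed them with Trimmomatic, and per the submitters' processing notes mapped them to mm10 with STAR 2.7.8a and counted unique matches per gene with featureCounts 2.0.1. The deposited values are whole-number counts per NCBI Gene ID without normalization, 44848322 to 60527385 per muscle. Of 27179 genes, 25275 were matched by NCBI Gene ID to a symbol in the RefSeq genes, and the others held 0.280% of counts. Genes were filtered with filterByExpr (15502 tested), scaled by TMM and compared between 6 Control and 6 *FRAIL1* muscles with edgeR 4.0.16 in R 4.3.3 (robust quasi-likelihood test, Benjamini-Hochberg adjustment over all tested genes, threshold 0.05, no term for the mouse). CPM use TMM-scaled libraries, and CPM per kilobase divides by the union of exons. Ratios of related genes were compared by exact two-sided permutation tests. The scripts were tested on simulated data.

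The genes, stages, ratios and lists were chosen with earlier results of these data known. Values are given for genes past the threshold, genes without overlap, the largest change of each stage, and *Ulk1*, *Becn1*, *Map1lc3b*, *Gabarapl1*, *Sqstm1*, *Bnip3* and *Pink1*, and of the further lists for genes past the threshold. Transcripts were searched for copies with BLAST 2.17.0. Alternatives were DESeq2 1.42.0, limma 3.58.1 (voom), other scalings and filters, a replicate block and left-out muscles. The labels do not say which muscles share a mouse. The p-values measure the spread between these muscles.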

Additional observations from a re-analysis of the deposited data

Results flagged for a closer look

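In 6 of the 76 groups of 6 muscles (38 mRNAs in Control and in *FRAIL1* muscles), 1 muscle lay so far from the others that its gap exceeded Dixon's 95% limit, where chance gives about 1 in 20 groups. Control muscle 5 was involved in 4 of them. It was the lowest Control muscle for *Rb1cc1* (46.8 CPM, next 58.0), *Bnip3* (81.9 CPM, next 104) and *Bnip3l* (32.9 CPM, next 40.0), and the highest for *Atg4b* (30.3 CPM, next 27.7). Control muscle 1 was the highest Control muscle for *Wipi2* (45.4 CPM, next 39.7). *FRAIL1* muscle 6 was the highest *FRAIL1* muscle for *Gabarap* (37.6 CPM, next 33.3). *FRAIL1* muscle 5 was far from its group by this measure in 0 cases, although it was lowest for 23 of the 38.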

How the results depend on the processing

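The rise of *Map1lc3a* and its count of 1 held in every one of the 21 alternatives, and the median over the 38 mRNAs stayed within the spread between *FRAIL1* muscles. The number of falls, 3, did not hold. It was 0 to 7 when 1 muscle was left out, 6 with DESeq2 and 6 with voom. It was 0 without *FRAIL1* muscle 1 or 4 or Control muscle 1, 2, 4 or 5, and 7 without *FRAIL1* muscle 3. In the fits with 0 falls among the 38, 50 to 120 of the 15596 to 15648 genes tested fell. Without *FRAIL1* muscle 3, 5.65% of all genes tested fell, with DESeq2 6.13% and with voom 5.43%. Over all genes the count, 974, was 364 to 2110 when 1 muscle was left out, 2232 with DESeq2 and 1836 with voom. The causes were not tested. *Pink1*, *Optn* and *Atg4d* passed the threshold in 14, 13 and 12 of the 21 alternatives, and 28 of the 38 genes in none. The depth behind each of the 38 was at least 286 reads per muscle.

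With the replicate number as a block there were 8 falls (*Ulk1*, *Ulk2*, *Atg9a*, *Atg4d*, *Map1lc3b*, *Optn*, *Fundc1* and *Pink1*) and 1 rise, where 6.62% of all genes tested fell and 7.48% rose, 2186 genes in all. Without both muscles numbered 5 and with the block there were 8 falls. In that fit 1212 of the 15525 genes tested fell and 1093 rose, 2305 genes past the threshold in all. The deviations of muscles with the same number correlated at 0.200 on average, against -0.0400 for other numbers, but at 0.0547 for number 5, and 10 of 12 muscles correlated best with their own number. The labels do not tie the numbers to mice, so this is a hint from the data only. With the block, 6 of 12 macrophage, 8 of 8 regenerating fiber, 5 of 8 denervated fiber and 0 of 8 fibroblast markers rose. Of the endothelial markers 3 of 8 fell, and of the muscle fiber markers 2 of 10. Among Schwann cell markers 1 rose and 1 fell, and among lymphocyte markers 1 rose. The difference of the ratio of *Map1lc3a* to *Map1lc3b* was 0.78 with the block (adjusted 0.104, exact permutation test with a smallest raw p of 0.0313) and 0.67 without both muscles numbered 5 (adjusted 0.0794, at the smallest raw p of 0.00794 from an exact permutation test). Adjusted over 10 ratios, 1 ratio alone could not pass the threshold in tests of those sizes.

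Small differences changed sign. The log2 fold changes were -0.0609 to 0.0468 for *Wipi1*, -0.0595 to 0.00749 for *Wipi2*, -0.0936 to 0.0104 for *Atg10* and -0.0399 to 0.0384 for *Atg12* when 1 muscle was left out, and that of *Atg4c* was -0.0247 without both muscles numbered 5 and -0.0241 with the block as well. The differences in log2 ratio of *Wipi1* to *Wipi2* and of *Atg4a* to *Atg4b* were -0.0640 to 0.0872 and -0.000130 to 0.122 when 1 muscle was left out, and without both muscles numbered 5 those of *Ulk1* to *Ulk2* and *Atg4a* to *Atg4b* were 0.000397 and -0.0358. *Sqstm1* to *Nbr1* (-0.31 to -0.17) passed the adjusted threshold without Control muscle 1 (0.0216) or *FRAIL1* muscle 2 (0.0433), and *Gabarapl1* to *Gabarap* (-0.35 to -0.23) without *FRAIL1* muscle 2 (0.0433, exact permutation tests).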
